A study of Homo sapiens with 7 samples.

Results

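AU-rich elements are stretches of adenosine and uridine in the 3′ untranslated regions (UTRs) of short-lived mRNAs, and the proteins that bind them decide together how long such an mRNA lasts and how well it is translated. The ZFP36 family of zinc finger proteins recruits deadenylases to these elements and speeds decay, while other binders stabilise the mRNA, hold it silent or cut it. The genes described here are 10 such binders outside the ZFP36 family, or proteins that act on the same inflammatory mRNAs through other elements. They are ELAVL1 (HuR), HNRNPD (AUF1), KHSRP (KSRP), TIA1, TIAL1 (TIAR), RC3H1 and RC3H2 (the roquins), ZC3H12A (a regnase), YBX1 and IGF2BP2. They were chosen by gene symbol, and all 10 have a value in each of the 7 libraries, out of 11408 genes with values.

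The libraries are poly(A)-selected RNA of MOLM13, an established human acute myeloid leukaemia line, taken 6 days after transduction with a guide RNA. In 3 libraries the guide was sgRosa, a non-targeting control. In 4 libraries it was 1 of 2 guides against ZFP36L2, called guide 3 and guide 5 as in the deposited columns, with 2 libraries each. All groups share the cell line, the medium and the day, and the labels do not say whether the cells were a pool or a clone, or that the replicates of a group came from different cultures. The spread behind each p-value is that among these libraries and may be technical. ZFP36L2 mRNA itself was 327 ± 14.4 CPM (reads scaled to library size; mean ± SD, n = 3) in the control libraries and 977 ± 320 CPM (n = 4) in those labelled with a ZFP36L2 guide. The mRNA of the targeted gene was thus higher, not lower, in the libraries labelled knockout, and every direction given here is of the libraries as labelled.

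Each library held between 16907955 and 38807816 reads in the listed genes, which makes 1 read worth 0.0261 to 0.0540 CPM. Changes are differences of log2(CPM + 0.5), tested for all 11408 genes with limma, and a gene is called risen or fallen at a Benjamini-Hochberg adjusted p under 0.05. Control replicate 2 stood apart from the other control libraries: it was the highest of the 7 libraries for 9 of the 10 genes and for 46.2% of all genes. Its level over the mean of the other controls had a median of 1.45 for the 10 genes and 1.25 for all genes. All 7 myeloid markers looked for had values, summing to between 5155 and 7996 CPM in the controls and between 11018 and 20284 CPM with the guides. Of these, 4 rose (SPI1, CSF2RA, CEBPA and LYZ), FLT3 fell by 0.80, and PTPRC (0.37) and CD33 (0.22) did not pass. The 8 monocyte maturation markers, among them CD14 and ITGAM, all rose, summing to 346 to 518 CPM in the controls and 1066 to 2524 CPM with the guides. Of the markers of other cells, only CD3D of 5 T cell genes had a value (13.6 to 18.5 CPM in the controls and 5.70 to 7.98 CPM with the guides), and none of 5 B cell, 5 erythroid or 5 epithelial and stromal genes did. How far these markers or control replicate 2 bear on the results below was not tested beyond the values given. In bulk RNA, fewer cells of a type and less RNA per cell cannot be told apart.

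The mRNAs of these proteins can carry AU-rich elements themselves. The stretches below hold short motifs of such elements, for the 4 genes that fell and for the only members with the full nonamer. Members that did not fall also hold ATTTA, and whether a motif has a part in a fall was not tested. Both motifs searched on the sense strand of the longest annotated 3′ UTR are known cores of such elements: the pentamer ATTTA and the nonamer TTATTTATT, which contains the pentamer. At least 1 ATTTA was found in 73.6% of the 3′ UTRs of 10619 genes, and at least 1 nonamer in 9.35%. Capitals mark ATTTA in the first 4 stretches, each of 30 bases around the densest group of pentamers, and the nonamer in the last 3, each of 29 bases. For HNRNPD and IGF2BP2 no such stretch held more than 1 pentamer, and the first pentamer of the 3′ UTR is shown. All are DNA letters of the mRNA strand, from GENCODE 29 transcripts on GRCh38, and all lie in 3′ UTR exons on the minus strand.
TIA1, chr2:70212588-70212617: agatacaatgtATTTATTTAaaagattcat
TIAL1, chr10:119574390-119574419: ttATTTAgacacttcaatgtaccaATTTAt
HNRNPD, chr4:82353569-82353598: tgtagccattaagATTTAtatgaatatttt
IGF2BP2, chr3:185644282-185644311: gaggaaagtagaaATTTAccaaggttgttg
ELAVL1, chr19:7961828-7961856: atttatgtatTTATTTATTgaagtgtgaa
RC3H2 first site, chr9:122849199-122849227: cttagttaacTTATTTATTtctattttat
RC3H2 second site, chr9:122847702-122847730: tgaagacattTTATTTATTtcactctgta

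The number of pentamers differed widely among the 10 mRNAs. RC3H2 had 25 ATTTA and 2 nonamers in a 3′ UTR of 5071 bases, and only 2.26% of genes had at least 2 nonamers. RC3H1 had 21 ATTTA and no nonamer in 7507 bases, the longest of the 10. ELAVL1 had 13 ATTTA and 1 nonamer in 4904 bases, and among all 3′ UTRs of 4000 bases or more 26.9% had a nonamer. TIA1 also had 13 ATTTA, in 3275 bases, TIAL1 had 7 in 3863 bases, and HNRNPD and IGF2BP2 had 2 each, in 1687 and 1792 bases. No ATTTA was found in the 3′ UTRs of KHSRP (764 bases), ZC3H12A (768 bases) or YBX1 (400 bases), against a median length of 1376 bases over all genes. The matches are descriptions of the letters. Neither of the 2 mRNAs with nonamers passed in the comparison of both guides with control, with all 7 libraries and no GC correction. RC3H2 was called risen in 1 alternative, given below.

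In the control libraries the 10 mRNAs spanned a wide range of levels per length. YBX1, a cold-shock domain protein that coats mRNA, was highest at 133 ± 46.4 CPM per kilobase of exon (SD, n = 3), above 98.2% of all genes. HNRNPD followed at 114 ± 28.9 and KHSRP at 97.5 ± 21.8 CPM per kilobase. IGF2BP2 (40.0 ± 22.2), ELAVL1 (32.0 ± 6.21), TIAL1 (22.5 ± 6.11) and TIA1 (19.1 ± 3.31) lay in the middle. RC3H1 (7.89 ± 2.81), RC3H2 (5.94 ± 1.20) and ZC3H12A (5.71 ± 0.661) were lowest, and ZC3H12A was above 42.9% of all genes. The ranges of neighbours in this order overlapped, except between KHSRP and IGF2BP2 and between TIA1 and RC3H1. In the libraries with the guides ZC3H12A was at 9.21 ± 2.01 CPM per kilobase (n = 4), above the mean of both roquins (5.38 and 4.94).

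**Figure D1:**
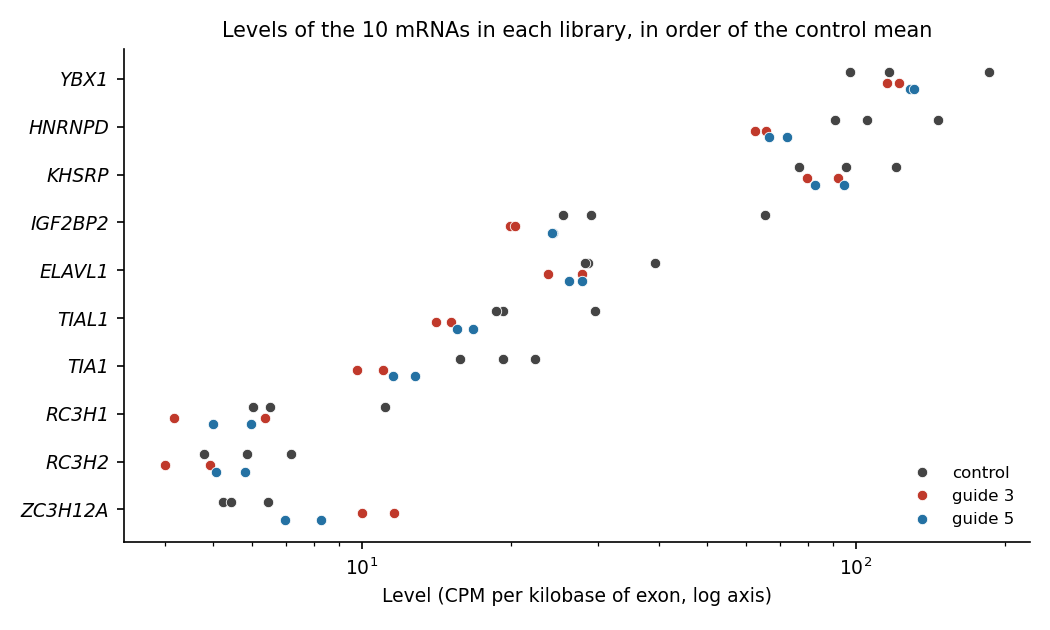
Level of each mRNA in CPM per kilobase of exon (log axis) in the 3 control, 2 guide 3 and 2 guide 5 libraries, ordered by the control mean; each point is 1 library and near-equal points cover each other. The order runs from YBX1 at a control mean of 133 to ZC3H12A at 5.71, and the guide points of ZC3H12A lie to the right of its controls while those of HNRNPD and TIA1 lie to the left.

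With both guides together against control, 1 of the 10 mRNAs rose (ZC3H12A), 4 fell (TIA1, HNRNPD, IGF2BP2 and TIAL1) and 5 did not pass the test. Among all genes tested 20.9% rose and 20.6% fell; the counts of 1 and 4 in 10 are given beside these shares as a description. The median change of the 10 was -0.39 on the log2 scale, beside -0.05 for all genes, and with each library corrected for GC content and length it was -0.12 beside -0.03. The groups did not overlap for 6 of the 10. All guide libraries were above all controls for ZC3H12A, as for 19.8% of all genes, and below them for ELAVL1 and the 4 that fell, as for 23.7% of all genes. With guide 3 alone, ZC3H12A rose and TIA1 and HNRNPD fell, where 21.2% of all genes rose and 18.9% fell. With guide 5 alone, TIA1 and HNRNPD fell and none rose, where 12.2% of all genes rose and 7.68% fell. Of all genes, 2414 rose and 2152 fell with guide 3 and 1393 rose and 876 fell with guide 5; with quantile normalization these splits became 2342 and 3242, and 1600 and 1833. Both guides are set against the same 3 controls. No member differed between the guides by limma, where 0.351% of all genes were higher and 0.0614% lower with guide 5 than with guide 3 and 1166 genes had an unadjusted p under 0.05; none of the 10 did.

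**Figure D2:**
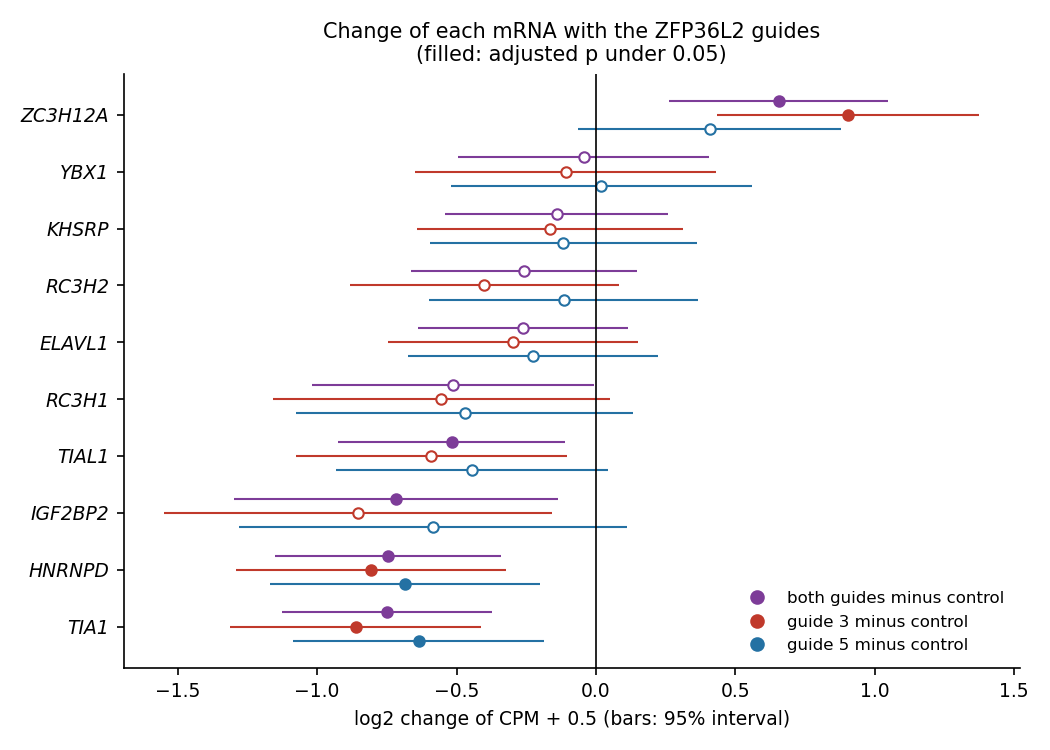
Change of each mRNA in log2(CPM + 0.5) for both guides, guide 3 and guide 5 minus control, with 95% intervals; filled points have an adjusted p under 0.05. TIA1 and HNRNPD are filled in all 3 comparisons, ZC3H12A in 2, and IGF2BP2 and TIAL1 with both guides only.

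TIA1 and TIAL1 are paralogous proteins that silence mRNAs bearing AU-rich elements and gather them into stress granules. TIA1 (ENSG00000116001, chromosome 2, 70209444 to 70248660, minus strand) was at 128, 148 and 104 CPM in the controls, at 72.9 and 64.6 CPM with guide 3, and at 76.3 and 84.7 CPM with guide 5. Every guide library was below every control library. TIA1 fell by 0.75 ± 0.17 on the log2 scale (SE, limma adjusted p = 0.00508), with -0.86 for guide 3 (adjusted p = 0.00667) and -0.64 for guide 5 (adjusted p = 0.0475). TIA1 shares 211 of its 6607 exon bases with C2orf42 on the same strand, so some reads could belong to either gene. TIAL1 (ENSG00000151923, chromosome 10, 119571802 to 119597029, minus strand) was at 142, 217 and 137 CPM in the controls, at 111 and 104 CPM with guide 3, and at 115 and 123 CPM with guide 5. The groups were again apart, by a smaller distance, and control replicate 2 was far above the rest. TIAL1 fell by 0.52 ± 0.19 (limma adjusted p = 0.0430) with both guides, while guide 3 alone (-0.59, adjusted p = 0.0527) and guide 5 alone (-0.44, adjusted p = 0.173) did not pass. Without control replicate 1 (adjusted p = 0.053) or without any 1 of the guide libraries (0.086 to 0.14) the fall of TIAL1 with both guides was not called. For TIA1 the fall with both guides was called without each library in turn, that with guide 3 was lost without guide 3 replicate 2 (0.11), and that with guide 5 was lost without control replicate 1 (0.10) or any 1 guide library (0.092 to 0.38). In the authors' deposited table, TIAL1 has a log2 fold change of -0.62 with a false discovery rate of 0.0491 for guide 3, and TIA1 of -0.88 with 0.00762. For guide 5 the deposited values are -0.48 with 0.157 for TIAL1 and -0.65 with 0.0488 for TIA1.

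HNRNPD encodes AUF1, a set of isoforms that bind AU-rich elements and mostly speed decay. HNRNPD (ENSG00000138668, chromosome 4, 82352498 to 82374503, minus strand) was at 736, 1023 and 633 CPM in the controls, at 435 and 458 CPM with guide 3, and at 466 and 506 CPM with guide 5. The guide libraries lay close together and below all controls. HNRNPD fell by 0.75 ± 0.19 on the log2 scale (limma adjusted p = 0.00769), with -0.81 for guide 3 (adjusted p = 0.0135) and -0.69 for guide 5 (adjusted p = 0.0474). The fall with both guides was called without each library in turn. That with guide 3 was lost without either guide 3 library (adjusted p = 0.098 and 0.096), and that with guide 5 without control replicate 1 (0.082) or any 1 guide library (0.085 to 0.35). HNRNPD rests on 13637 to 21878 reads per library, so counting error is small beside the spread of the controls. An antisense gene overlaps 203 of its exon bases, and 2 pseudogenes are annotated for it.

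KHSRP encodes KSRP, which binds AU-rich elements and brings in the exosome and other decay enzymes. KHSRP (ENSG00000088247, chromosome 19, 6413348 to 6424794, minus strand) was at 351, 549 and 435 CPM in the controls, at 363 and 420 CPM with guide 3, and at 432 and 377 CPM with guide 5. The groups overlapped, and the lowest library was a control. Its difference was -0.14 on the log2 scale (95% interval -0.54 to 0.26, limma adjusted p = 0.554). The annotation holds 1 pseudogene of KHSRP. ELAVL1 encodes HuR, which stabilises mRNAs with AU-rich elements and competes with the decay factors. ELAVL1 (ENSG00000066044, chromosome 19, 7958579 to 8005659, minus strand) was at 199, 273 and 197 CPM in the controls, at 166 and 194 CPM with guide 3, and at 194 and 183 CPM with guide 5. The groups did not overlap, but the highest guide libraries were close to the lowest controls. Its difference was -0.26 (95% interval -0.64 to 0.11, limma adjusted p = 0.236), so the interval allows a fall of the size seen for TIAL1. An antisense gene overlaps 528 of the 6956 exon bases of ELAVL1.

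ZC3H12A is an endonuclease that cuts stem-loops in the 3′ UTRs of inflammatory mRNAs and is known to be induced by inflammatory signals. ZC3H12A (ENSG00000163874, chromosome 1, 37474552 to 37484379, plus strand) was at 16.4, 16.9 and 20.2 CPM in the controls, at 31.2 and 36.2 CPM with guide 3, and at 25.8 and 21.8 CPM with guide 5. All guide libraries were above all controls, and both guide 3 libraries were above both guide 5 libraries. ZC3H12A rose by 0.66 ± 0.18 on the log2 scale (limma adjusted p = 0.0130), with 0.90 for guide 3 (adjusted p = 0.00665). The value for guide 5 was 0.41 (95% interval -0.06 to 0.88, adjusted p = 0.194), and guide 5 minus guide 3 was -0.50 ± 0.24 (adjusted p = 0.499). A difference between the guides was therefore not detected for ZC3H12A. It is the member with the fewest reads, 303 to 1384 per library. Without guide 3 replicate 2 or without guide 5 replicate 1 the call with both guides was lost (adjusted p = 0.079 and 0.077, within a range of 0.0019 to 0.91 over 23 alternatives), and without guide 3 replicate 2 that with guide 3 was lost too (0.12).

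RC3H1 and RC3H2, the roquins, bind stem-loops in many of the same mRNAs and recruit the CCR4-NOT deadenylase. RC3H1 (ENSG00000135870, chromosome 1, 173931214 to 174022297, minus strand) was at 75.1, 128 and 69.3 CPM in the controls, at 73.3 and 48.0 CPM with guide 3, and at 57.6 and 68.6 CPM with guide 5. RC3H2 (ENSG00000056586, chromosome 9, 122844556 to 122905341, minus strand) was at 67.4, 83.0 and 55.3 CPM in the controls, at 56.8 and 46.1 CPM with guide 3, and at 58.4 and 66.8 CPM with guide 5. For both genes the groups overlapped. The difference was -0.51 for RC3H1 (95% interval -1.02 to -0.01, limma adjusted p = 0.0931) and -0.26 for RC3H2 (95% interval -0.66 to 0.15, adjusted p = 0.277). Without control replicate 3, RC3H1 passed with both guides (-0.68, adjusted p = 0.041), and without control replicate 2 it was at -0.24 (0.27, within 0.013 to 0.85 over 22 alternatives).

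IGF2BP2 reads methylated adenosine in mRNAs and protects them from decay, and YBX1 packages and stabilises mRNAs. IGF2BP2 (ENSG00000073792, chromosome 3, 185643739 to 185825056, minus strand) was at 121, 310 and 137 CPM in the controls, at 94.5 and 96.4 CPM with guide 3, and at 115 and 115 CPM with guide 5. Control replicate 2 was 2.40 times the mean of the other controls, and the remaining controls lay just above the guide 5 libraries. IGF2BP2 fell by 0.72 ± 0.27 on the log2 scale (limma adjusted p = 0.0476), and neither guide 3 (-0.85, adjusted p = 0.050, above the threshold before rounding) nor guide 5 (-0.58, adjusted p = 0.208) passed alone. Without control replicate 2 its change was -0.30 (adjusted p = 0.060, within a range of 0.00095 to 0.097 over 22 alternatives) and the call was lost, while guide 3 alone then passed (-0.43, adjusted p = 0.024). The call with both guides was also lost without any 1 of the guide libraries (adjusted p = 0.080 to 0.097). In the authors' deposited table, IGF2BP2 has a log2 fold change of -0.99 with a false discovery rate of 0.0351 for guide 3, and of -0.72 with 0.143 for guide 5. YBX1 (ENSG00000065978, chromosome 1, 42682427 to 42702349, plus strand) was at 188, 358 and 225 CPM in the controls, at 223 and 236 CPM with guide 3, and at 248 and 253 CPM with guide 5. The guide libraries lay within the range of the controls, with a difference of -0.04 (95% interval -0.50 to 0.41, limma adjusted p = 0.875). The annotation holds 10 pseudogenes of YBX1, and reads that match them as well as the gene make its level uncertain.

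**Figure D3:**
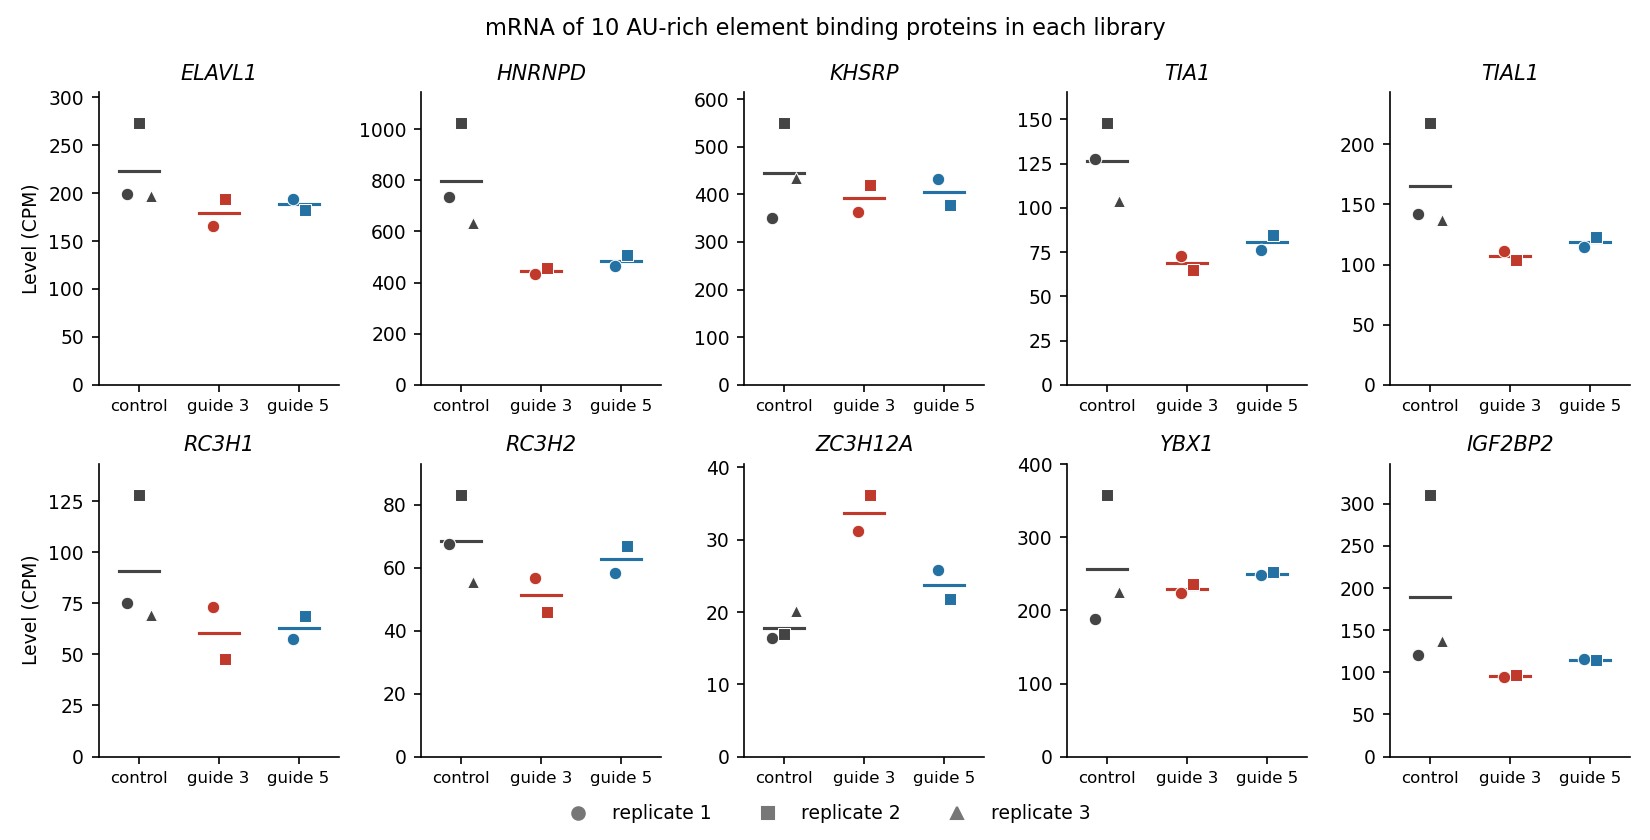
Level of each of the 10 mRNAs in CPM (linear axes from 0, 1 panel per gene) in each control, guide 3 and guide 5 library; marker shapes give the replicate number and bars the group mean. Control replicate 2 is the highest point in every panel but ZC3H12A, where the 4 guide libraries lie between 21.8 and 36.2 CPM, above all controls.

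Leaving out control replicate 2 kept 4 of the 5 calls: ZC3H12A rose by 0.62, TIA1 fell by 0.63, HNRNPD fell by 0.55 and TIAL1 fell by 0.31 (adjusted p = 0.0499, within a range of 0.0091 to 0.96 over its 23 alternatives). In that fit 27.0% of all genes rose and 20.2% fell. For YBX1 and KHSRP the sign turned, to 0.22 and 0.02, and neither passed the test.

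Change also went with the base composition of the transcripts, across all genes. When all genes were ranked by GC content and split into 10 equal bins, the bin with the lowest GC content had a median change of -0.55 on the log2 scale, and 49.3% of them fell and 3.77% rose. The bin with the highest GC content had a median of 0.69, and 54.7% rose and 0.526% fell. HNRNPD (36.1% GC in its longest transcript), TIA1 (36.6%) and RC3H2 (37.8%) are in the lowest bin, and RC3H1 (38.7%) and TIAL1 (39.3%) in the next, where the median was -0.49. ELAVL1 (46.1%) and IGF2BP2 (48.7%) lie near the middle, where the medians of their bins were -0.20 and -0.06. YBX1 (53.1%) is in a bin with a median of 0.14, and KHSRP (59.2%) and ZC3H12A (61.2%) are in one with a median of 0.49, where 45.0% rose. The changes of TIAL1, RC3H1 and ELAVL1 thus lay near the median of genes of like GC content. Those of ZC3H12A and RC3H2 lay somewhat above it, those of TIA1, HNRNPD and YBX1 somewhat below it, and those of IGF2BP2 and KHSRP further below.

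**Figure D4:**
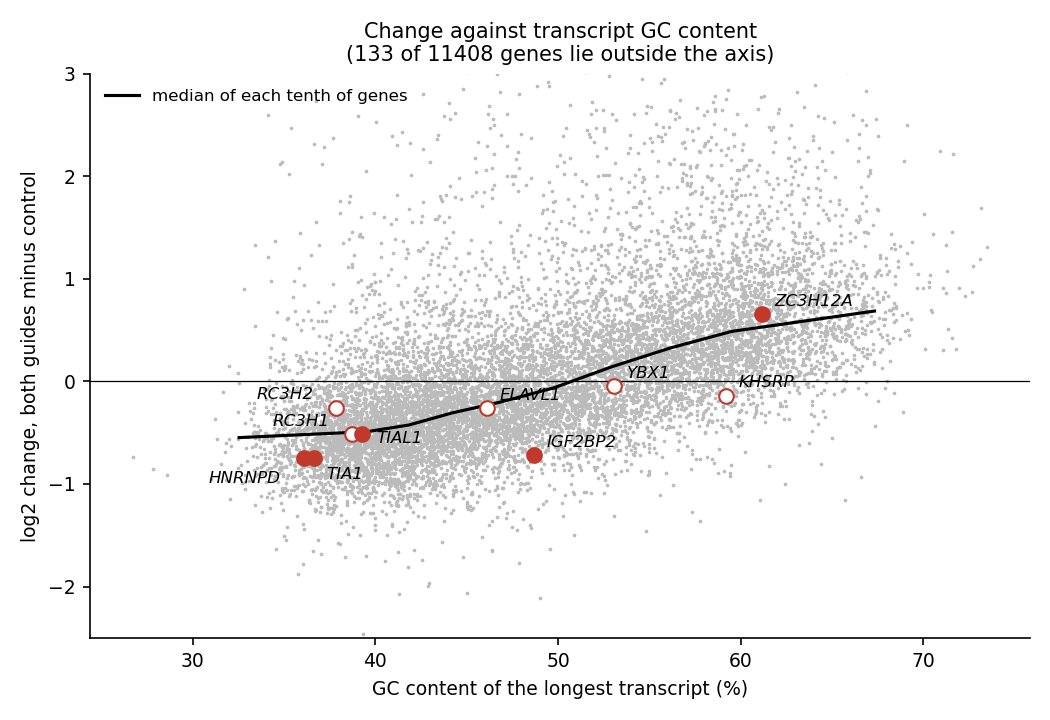
Change of every gene in log2(CPM + 0.5), both guides minus control, against the GC content of its longest transcript in percent; grey points are genes, the line joins the medians of the 10 bins, and filled red points are members with an adjusted p under 0.05. The line climbs from -0.55 to 0.69, TIAL1 and RC3H1 sit on it, ZC3H12A lies just above it, and IGF2BP2 and KHSRP lie below it.

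When each library was corrected for a smooth trend on transcript GC content and length, none of the 5 calls held. ZC3H12A was then at 0.04 (adjusted p = 0.816), TIA1 at -0.18 (0.16, within 0.00036 to 0.37 over 23 alternatives), HNRNPD at -0.17 (0.37, within 0.00074 to 0.68) and TIAL1 at -0.01 (0.944). IGF2BP2 stayed at -0.64 with an adjusted p of 0.089. KHSRP fell by 0.67 (limma adjusted p = 0.024, within 0.00015 to 0.90) and was the only member called, in a fit where 18.5% of all genes rose and 16.0% fell. With the correction and without control replicate 2, KHSRP fell by 0.42 (adjusted p = 0.00015), IGF2BP2 fell by 0.27 (0.0091) and RC3H2 rose by 0.29 (0.0060, within 0.0060 to 0.58), where 32.1% of all genes rose and 22.3% fell. Whether GC content, length or something that goes with them sets these changes was not tested, and the correction also removes any change that low-GC mRNAs share.

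**Figure D5:**
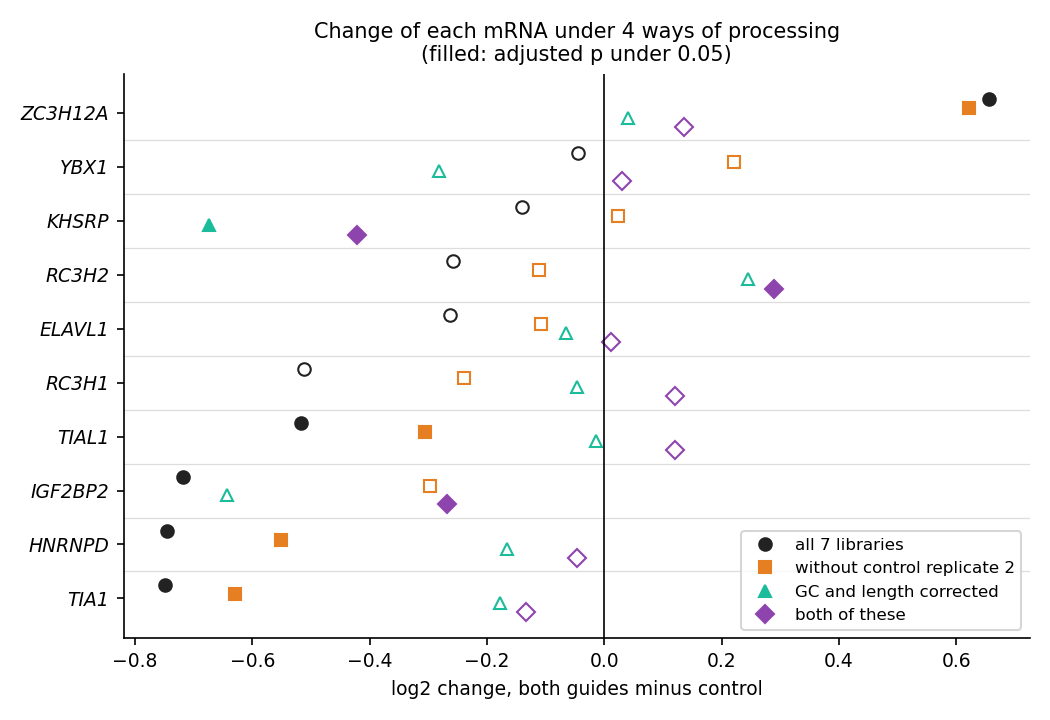
Change of each mRNA in log2 units, both guides minus control, with all 7 libraries, without control replicate 2, with the GC and length correction, and with both of these; filled points have an adjusted p under 0.05. TIA1 moves from -0.75 to -0.18 with the correction, KHSRP from -0.14 to -0.67, and ZC3H12A from 0.66 to 0.04.

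Over the 7 libraries, the genes whose levels followed TIA1 most closely were G3BP1, a core protein of stress granules (Pearson r = 0.9998), SRSF10, a splicing factor (r = 0.9993), and CCDC41 (r = 0.9989). These correlations are descriptions over 7 libraries that share the difference between groups and the high control replicate 2. The 3 genes changed by -0.83, -0.87 and -1.50 on the log2 scale and have a GC content of 38.3%, 39.8% and 39.2%, close to that of TIA1.

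Paralogs of the 10 proteins had values for 8 of 14 genes, of which 1 rose and 2 fell, with a median of -0.31, beside 20.9% and 20.6% of all genes that rose and fell and an overall median of -0.05. HNRNPDL, a paralog of HNRNPD, went from 365 ± 84.2 CPM in the controls to 192 ± 12.6 CPM with the guides and fell by 0.90 on the log2 scale (limma adjusted p = 0.00223). FUBP1, a relative of KHSRP that binds single-stranded DNA and RNA, went from 265 ± 96.0 to 121 ± 11.7 CPM and fell by 1.07 (adjusted p = 0.00194). Unlike HNRNPD, both kept their calls with the GC and length correction, at -0.61 and -0.81, and the difference between the paralogs was not tested. ZC3H12C, a nuclease of the family of ZC3H12A, went from 1.91 ± 0.658 to 6.69 ± 2.47 CPM and rose by 1.55 (adjusted p = 0.000393), and by 2.08 with the correction. The other 5 did not pass: HNRNPAB (-0.36), FUBP3 (-0.26), ZC3H12D (0.06), YBX3 (-0.17) and IGF2BP3 (-0.50). With the correction the list had a median of -0.15, and HNRNPAB fell by 0.66 (adjusted p = 0.0162, within 0.00020 to 0.32 over its alternatives).

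Of the ZFP36 family, which competes for the same elements, ZFP36L2 rose by 1.52, ZFP36 by 1.42 (91.7 to 243 CPM) and ZFP36L1 by 3.44 (0.450 to 9.37 CPM). All 3 remained called without control replicate 2 and with the GC and length correction. ZFP36L1 is read from few counts in the controls, so its fold depends on the number added before the log. At 0.450 ± 0.380 CPM in the controls, it passed the filter of 1 CPM in 2 libraries only through the guide libraries. Its rise is therefore a description only.

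Other proteins that bind 3′ UTRs had values for 36 of 36 genes, of which 3 rose and 11 fell (median -0.35), beside 20.9% and 20.6% of all genes. CPEB4, which controls poly(A) tails (1.39), and ARID5A, which shields inflammatory mRNAs from ZC3H12A (0.86), led the rises, and SYNCRIP (1026 ± 421 to 489 ± 68.4 CPM) and HNRNPA1 (-0.87) led the falls. With the GC and length correction 2 rose and 6 fell (median -0.07), beside 18.5% and 16.0% of all genes in that fit. ARID5A and SYNCRIP were then no longer called. Among the enzymes that the binders recruit, 25 genes of the CCR4-NOT, PAN and decapping complexes were tested. Of these 0 rose, 7 fell and 18 did not pass (median -0.32), beside 20.9% and 20.6% of all genes. The catalytic subunits CNOT7 (-0.72) and CNOT6L (-0.72) were lowest by limma. With the correction 2 rose and 3 fell (median -0.09), beside 18.5% and 16.0% of all genes, and neither CNOT7 nor CNOT6L was among them. Without control replicate 2 the count was 1 risen and 4 fallen, beside 27.0% and 20.2% of all genes. Of 14 tested RNA exosome genes, 2 rose, 6 fell and 6 did not pass (median -0.48), beside 20.9% and 20.6% of all genes: EXOSC4 (0.76) and EXOSC5 (0.51) rose, and the helicase SKIV2L2 (-0.90) and the nuclease DIS3 (-0.74) led the falls. With the correction 0 rose and 3 fell (median -0.16), SKIV2L2 among them, beside 18.5% and 16.0% of all genes.

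Stress granule proteins, the partners of TIA1 and TIAL1, had 1 rise and 5 falls among 16 genes (median -0.28), beside 20.9% and 20.6% of all genes. EIF2AK2, the kinase that halts translation when it senses double-stranded RNA, rose by 1.46, while G3BP1 fell by 0.83 and EIF2S1, the kinase's substrate, fell by 0.79. All 3 kept their calls with the correction. The list then had 1 rise and 3 falls (median -0.19), beside 18.5% and 16.0% of all genes. Regulators of the 10 proteins had 5 rises and 7 falls among 22 genes (median -0.22), beside 20.9% and 20.6% of all genes. Without control replicate 2 they had 7 rises and 6 falls, beside 27.0% and 20.2% of all genes. CARD9, which acts with BCL10 and the protease MALT1 upstream of the cleavage of ZC3H12A, rose by 1.68, and PRKCA, a kinase of HuR, rose by 1.11. TNPO1 (-0.93) and XPO1 (-0.92), carriers through the nuclear pore, led the falls. All 4 kept their calls with the correction, where 2 rose and 4 fell (median -0.09), beside 18.5% and 16.0% of all genes.

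Among mRNAs known as targets of ZC3H12A or the roquins, 9 of 20 had values, and 5 rose and 1 fell (median 0.64), beside 20.9% and 20.6% of all genes. IL1B went from 3.43 ± 1.45 to 67.5 ± 16.5 CPM and rose by 4.14, IER3 rose by 1.80, and TFRC, the transferrin receptor, fell by 0.49. ZC3H12A, which cuts its own mRNA, is itself 1 of the 5. With the correction 4 rose and 0 fell (median 0.33), beside 18.5% and 16.0% of all genes. Among mRNAs known as targets of HuR or AUF1, 18 of 21 had values, and 6 rose and 4 fell (median 0.09), beside 20.9% and 20.6% of all genes. CDKN1A, the cell cycle inhibitor p21, rose by 2.32 and VEGFA by 1.99, while CCNA2 fell by 0.78 and BCL2 by 0.76. With the correction 5 rose and 2 fell (median 0.24), beside 18.5% and 16.0% of all genes, and CCNA2 was no longer called. The monocyte maturation markers given above moved in the same libraries as all of these lists, and their part in the counts was not tested.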

How the data were processed

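The authors deposited FPKM (reads scaled by length and library size) for each library. Dividing recovered whole reads for 100% of values (tolerance 0.01) with the gene length implied by the authors' mean CPM and their FPKM. This implied length equalled the GENCODE 29 gene span (end minus start) for 8064 of 11408 genes. For 10382 genes it was within 5% of that span. For TIAL1 it was 22342 bases, shorter than the annotated span. FPKM was therefore multiplied by the implied length to give CPM, since a number added to FPKM would shrink changes of long genes. The tools named in the submitters' processing notes are limma, edgeR, HTSeq and STAR 2.5.3, with the builds hg38 and GRCh38.p7; roles and the strand setting of counting are not given in the sources used here. The authors' deposited table of comparisons gives log2 fold changes, p-values with false discovery rates, and mean CPM, a signal scaled by library size. The deposited columns number the guides 3 and 5 and the labels 1 and 2, so guides are named by column.

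A table of 11581 genes held 173 without values; the other 11408 all had at least 1 CPM in 2 libraries and were tested. limma 3.58.1 (R 4.3.3) with a mean-variance trend was fitted to log2(CPM + 0.5), with 1 mean per guide group and 4 residual degrees of freedom. The code was checked on simulated data without a GC trend or an outlying control, so that check does not bear on either. Members and lists were chosen with earlier results of these data known. Named are all members, the ZFP36 family, tested paralogs, up to 2 called genes with the highest and 2 with the lowest change per list, and 3 genes most like the member with the largest called change. Lengths, GC content and 3′ UTRs are of GENCODE 29. Other tools were Python 3.11.15, pandas 2.3.3, numpy 2.4.6, scipy 1.17.1 and matplotlib 3.10.9. Alternatives covered the number added, filters, scaling, GC content, replicate numbers, the variance model, library weights and leaving out each library. Deviations from group means correlated between -0.49 and 0.37 for same-numbered libraries and between -0.59 and 0.59 for differently numbered ones. With 2 libraries per guide these deviations mirror each other, so whether the numbers pair libraries could not be told.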

Additional observations from a re-analysis of the deposited data

How the results depend on the processing

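Control replicate 2, the GC correction and, with 2 libraries per guide, single guide libraries changed calls; where a call was lost or a sign turned, the cause was not tested. Over the alternatives for both guides, TIA1 and HNRNPD were called in 20 of 23, ZC3H12A in 18 of 23, TIAL1 in 13 of 23 and IGF2BP2 in 13 of 22. The alternatives overlap in their libraries and settings, so these tallies are descriptions. No fit with the GC and length correction called TIA1, HNRNPD, ZC3H12A or TIAL1 with both guides. IGF2BP2 was called with that correction only where control replicate 2 was also left out. Dropping the filter on low values left the same genes. A single mean for both guides gives only the comparison of both guides with control, and IGF2BP2 and RC3H1 were below the FPKM filter and not tested there. The weights gave control replicate 2 the lowest weight, 0.143, against 0.605 to 1.88 for the others. Depth was lowest for ZC3H12A, with as few as 303 reads.

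Leaving out each library in turn, members called risen ranged from 0 to 1 and fallen from 2 to 5 with both guides, from 0 to 1 and 0 to 4 with guide 3, and fallen from 0 to 2 with guide 5. Genes called ranged from 1608 to 3076 risen and 1110 to 2951 fallen with both guides, 1115 to 3178 and 398 to 2823 with guide 3, 614 to 2238 and 55 to 1605 with guide 5, and 8 to 233 and 1 to 204 for guide 5 minus guide 3. Changes whose sign turned ranged from -0.30 to 0.023 for KHSRP with both guides and -0.28 to 0.047 with guide 5, and from -0.26 to 0.032 for RC3H2 with guide 5. For YBX1 they ranged from -0.24 to 0.22 with both guides, -0.31 to 0.16 with guide 3 and -0.18 to 0.28 with guide 5, for YBX3 from -0.31 to 0.013 and for ZC3H12D from -0.043 to 0.22.

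The replicate block gives control replicate 3 a number of its own, so its estimates equal those without that library. With the replicate block, 5 members fell with both guides, RC3H1 among them, where 2810 of all 11408 genes fell. With guide 3, 5 members fell where 2668 of all genes fell. In that fit 1540 genes fell with guide 5, and 95 and 56 genes were higher and lower with guide 5 than guide 3. YBX1 was -0.049 with guide 5 and ZC3H12D -0.043 with both guides. The replicate block with GC and length correction called 1413 genes risen and 1055 fallen (0 and 1 members) with both guides, 1320 and 831 (0 and 1 members) with guide 3, 905 and 452 (0 members fallen) with guide 5, and 3 genes lower for guide 5 minus guide 3. In that fit TIAL1 was 0.038 and RC3H1 0.030 with guide 3, RC3H2 was 0.23, 0.25 and 0.22 with both guides, guide 3 and guide 5 and -0.031 between guides, and ZC3H12A was -0.029 with both guides and -0.14 with guide 5. YBX1 was -0.25 with guide 5, EXOSC5 -0.24, FUBP3 0.014, YBX3 0.40 and ZC3H12D -0.41.

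GC and length correction alone called 0 members risen and 1 fallen with both guides and with guide 3, 0 members with guide 5, 1428 genes fallen with guide 3 and 13 lower with guide 5 than guide 3. In that fit TIAL1 was 0.040 and RC3H1 0.066 with guide 3, RC3H2 0.24, 0.26 and 0.23 with both guides, guide 3 and guide 5 and -0.031 between guides, and ZC3H12A -0.072 and YBX1 -0.14 with guide 5. EXOSC5 was -0.17, FUBP3 0.0064, YBX3 0.33 and ZC3H12D -0.27. With this correction and no control with the number 2, an alternative chosen after seeing the data, genes risen were 3667 with both guides, 3642 with guide 3 and 3142 with guide 5, where 2289 fell, and 788 were higher and 1157 lower between guides. Members fallen were 2 with both guides and 1 (KHSRP) with guide 5, where 1 (RC3H2) rose, and 2 (YBX1 and KHSRP) were higher with guide 5 than guide 3. ELAVL1 was then 0.012 with both guides and 0.038 with guide 3, HNRNPD 0.027 with guide 3, and YBX1 0.031 with both. TIAL1 was 0.12, 0.17 and 0.068, RC3H1 0.12, 0.23 and 0.0079, and RC3H2 0.29, 0.30 and 0.27 with both guides, guide 3 and guide 5, and RC3H2 was -0.031 between guides. EXOSC5 was -0.13, FUBP3 0.020, IGF2BP3 0.17, YBX3 0.43 and ZC3H12D -0.10.

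Library weights called 3643 genes risen, and 2848 genes and 4 members fallen, with guide 3, and 2577 genes risen and 1870 fallen with guide 5. With these weights 908 genes were higher and 1366 lower with guide 5 than guide 3, with 1 member (ZC3H12A) lower. KHSRP was then 0.038, 0.014 and 0.062 with both guides, guide 3 and guide 5, YBX1 0.21 and 0.14 with both guides and guide 3, and YBX3 0.0019. The deposited FPKM as log2(FPKM + 0.5), with a filter at 1, called 1526 genes risen, 1339 fallen and 2 members fallen with both guides, 1593 and 1166 genes with guide 3, and 841 and 503 genes and 0 members fallen with guide 5, with 19 genes lower between guides. Quantile normalization called 3242 genes and 4 members fallen with guide 3, 1833 genes fallen with guide 5, and 113 higher and 39 lower between guides, and put YBX1 at 0.013. Scaling to the same total called 3009 genes and 4 members fallen with guide 3, 1368 genes fallen with guide 5 and 75 higher between guides. Scaling by the median of ratios called 2477 genes and 4 members fallen with guide 3 and put YBX1 at 0.017. A mean of at least 10 CPM called 920 genes risen, 728 genes and 1 member (HNRNPD) fallen with guide 5, and 22 genes higher between guides. limma voom on the recovered reads called 2236 genes and 4 members fallen with guide 3 and 13 genes lower between guides. Without a variance trend, 2202 genes and 2 members fell with both guides, and 768 genes and 0 members with guide 5. In that fit 15 genes were lower between guides. Adding 0.1 or 1 before the log gave 4 or 12 genes lower between guides.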
